A study of Mus musculus with 22 samples.

Results

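Chimera C1C3a, a derivative of the mouse transcription factor DUX, was compared with full-length DUX (FL) by poly(A) RNA sequencing in 4 libraries, 2 for each construct. They were taken by column name from a table of 14 libraries in 7 groups, and the series as a whole lists 22 libraries in 11 groups. All of the cells were mouse embryonic stem cells (mESCs) of a Dux-/- line, kept in 2iLIF, the medium with 2 kinase inhibitors and LIF that holds such cells in the naive state. The FL group carried the genotype mCherry-FL Dux and the C1C3a group the genotype mCherry-C1C3a Dux, and both were given doxycycline at 0.25 ug/mL for 12 h after a 24 h recovery from plating. The input was 500 ng of total RNA and the mRNA kit kept strand. Also used for reference are the groups mCherry, the red fluorescent tag alone, and C3+14, another DUX derivative, in the same Dux-/- line with the same doxycycline treatment. Which pieces of DUX the name C1C3a stands for, and how it differs from C1C3b and C1C3c, is not spelled out in the labels, and neither is the number of clones behind each line. Nothing in them says whether the 2 libraries of a group came from separate cultures, so p-values measure the spread between these libraries, which may be technical.

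DUX binds DNA through a pair of homeodomains and activates transcription through its C-terminal part. In the mouse embryo it is made briefly when the zygotic genome is switched on, and in mESCs its forced expression turns on genes of the 2-cell embryo: the Zscan4 genes, which act on telomeres and genome stability, and families of near-identical genes such as the Usp17-like deubiquitinases, the Eif1a-like translation factors, the Obox homeobox genes, the Tdpoz genes and the Pramel and Pramef genes. Retroviral MERVL repeats act as promoters for others, such as the zinc-finger gene Zfp352. The comparison asks in which of these genes, and in which genes of the resting stem cell, cells with C1C3a differed from cells with FL.

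Promoters of 4 genes, 2 from the Zscan4 family and 2 from the Eif1a-like family, show the kind of sequence at which these families start, and are printed because the families moved in opposite directions. Each stretch is the 250 bases before the start of the gene in RefSeq (GRCm38.p6), 5′ to 3′ on the gene's strand, and capitals mark a match, on either strand, to the letters TAAT or TGAT followed by any 2 bases and AATCA. The stretches lie at chr7:11005495-11005744 on the plus strand for Zscan4c, chr7:11166149-11166398 on the minus strand for Zscan4d, chr12:87816327-87816576 on the plus strand for BB287469 and chr12:87618659-87618908 on the plus strand for Gm4027.
Zscan4c: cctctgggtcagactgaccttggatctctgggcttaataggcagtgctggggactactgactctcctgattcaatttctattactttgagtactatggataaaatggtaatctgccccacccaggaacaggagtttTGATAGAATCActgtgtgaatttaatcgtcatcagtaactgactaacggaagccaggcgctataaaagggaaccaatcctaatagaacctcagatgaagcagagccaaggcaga
Zscan4d: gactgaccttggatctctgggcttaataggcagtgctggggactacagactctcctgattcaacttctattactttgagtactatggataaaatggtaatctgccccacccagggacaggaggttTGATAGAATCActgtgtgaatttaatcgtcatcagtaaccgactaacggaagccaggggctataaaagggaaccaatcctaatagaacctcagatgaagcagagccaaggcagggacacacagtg
BB287469: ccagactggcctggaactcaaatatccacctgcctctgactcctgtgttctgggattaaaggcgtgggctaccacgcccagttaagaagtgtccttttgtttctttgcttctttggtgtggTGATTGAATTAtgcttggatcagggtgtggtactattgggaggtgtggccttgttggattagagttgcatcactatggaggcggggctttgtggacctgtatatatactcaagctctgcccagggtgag
Gm4027: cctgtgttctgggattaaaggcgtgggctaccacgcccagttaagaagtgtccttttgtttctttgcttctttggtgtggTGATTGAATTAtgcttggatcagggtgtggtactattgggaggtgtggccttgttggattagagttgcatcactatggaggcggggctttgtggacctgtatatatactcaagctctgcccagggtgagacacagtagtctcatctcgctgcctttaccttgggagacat
The match began 125 bases before the start of Zscan4d, 129 before that of BB287469 and 170 before that of Gm4027. Aligned with free ends, the Zscan4c and Zscan4d stretches overlapped over 239 positions, of which 232 (97.1%) were identical, and those of BB287469 and Gm4027 over 209 positions, all identical. The Zscan4c and BB287469 stretches were identical at 149 of 264 overlapping positions (56.4%), gaps included. Among the 27025 genes with a RefSeq promoter window, which runs from 250 bases before to 50 bases after the start, 0.644% held either pattern; no window held both. Of the genes tested below, the share was 8 of 1360 (0.588%) for those higher in C1C3a, 7 of 572 (1.22%) for those lower and 31 of 11035 (0.281%) for those not called. Copies of a family were counted as separate genes, so near-identical promoters such as those of Zscan4c and Zscan4d, both called lower, each add a match. These 2 patterns were picked from 6 after the counts had been seen. A match describes letters and shows no binding.

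Library totals were 32168300 and 31391063 reads for FL and 32543856 and 29559780 for C1C3a, within the 21059953 to 32543856 of the table. Values are reads scaled by 1 size factor for each library, called normalised reads here. In these units 1 read was worth 1.47 and 1.19 in the FL libraries and 1.11 and 1.42 in the C1C3a libraries. They are not divided by gene length, so they are compared between libraries and not between genes. Across the 21584 genes tested, the FL libraries correlated with Pearson's r of 0.964 on the log2 scale and the C1C3a libraries with 0.973, and r between groups was 0.932 to 0.943. Genes are not independent replicates. The FL libraries differed from each other 2-fold or more at 4340 genes and the C1C3a libraries at 3363, against 6385 to 7258 for libraries of different groups. Dux itself, listed as Duxf3, had 0 reads in all 4 libraries, so the amount of each construct was not measured and the labels could not be checked through it; a count of 0 allows up to 3 reads. Stem cell genes were present in all 4: Pou5f1, which codes for OCT4, had 19308 and 20815 normalised reads in FL and 14877 and 19872 in C1C3a, and was not called by limma (log2 difference -0.22, adjusted p = 0.318). Values at genes with near-identical copies could be compared between FL and C1C3a, which had 1.80% to 2.06% of their reads in the 1611 genes of highest copy number, but not with mCherry and C3+14, which had 0.295% to 0.340%.

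C1C3a was higher than FL at more genes than it was lower. By limma on log2(normalised reads + 1), 3375 of 21584 genes (15.6%) changed 2-fold or more with an adjusted p (Benjamini-Hochberg) under 0.05. This is what "called", "rose" and "fell" mean below, with C1C3a read against FL. Fold changes are on this log2 scale, which understates those of genes with few reads. Of the 3375 genes, 2377 (11.0% of genes tested) were higher in C1C3a and 998 (4.62%) were lower, so that 70.4% of the calls were higher. Counts of calls in the gene lists below are to be read against these shares of 11.0% and 4.62%. The libraries of the groups did not overlap at 56.6% of all genes tested, so a lack of overlap alone is common. The median absolute log2 difference was 1.86 among the higher and 1.81 among the lower genes, and 1017 and 432 of them, respectively, changed 4-fold or more. Protein-coding genes made up 68.3% of the higher and 71.7% of the lower genes. Of the 15638 protein-coding genes tested, 10.4% were higher and 4.58% lower, near the shares of all genes. Genes that share at least 10% of their 50-base stretches with another gene made up 24.8% of the higher and 28.9% of the lower genes. Of the 4954 such genes tested, 11.9% were higher and 5.81% lower, also not far from the shares of all genes. The split depended on the scaling: 58.6% of 3403 calls were higher after quantile normalization, and 78.5% of 3040 calls after rescaling to equal library totals, which moved the median of all genes to 0.12. Without C1C3a replicate 1, 63.4% of 2608 calls were higher.

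**Figure D1:**
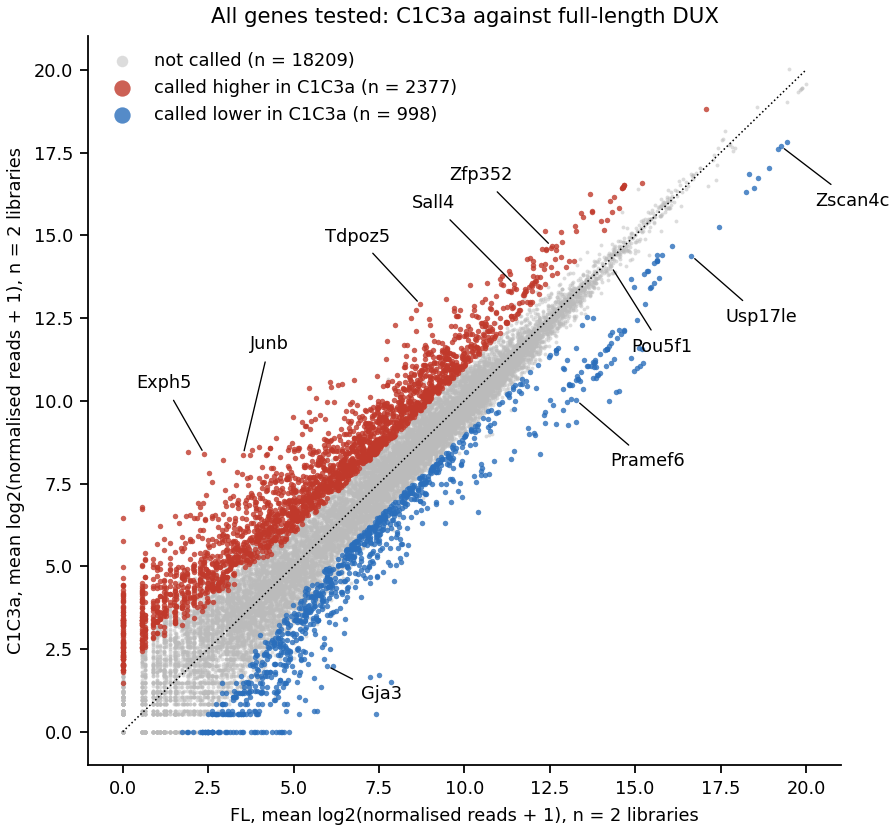
Mean log2(normalised reads + 1) of the 2 FL libraries (horizontal) against that of the 2 C1C3a libraries (vertical) for each of the 21584 genes tested, with the 2377 genes called higher in C1C3a in red, the 998 called lower in blue, the others in grey and the line of equality dotted. Zscan4c, Usp17le and Pramef6 lie below the line at high expression, while Zfp352, Sall4 and Tdpoz5 lie above it and Pou5f1 lies on it.

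The Zscan4 family fell as a whole: all 9 genes tested were lower in C1C3a, with log2 differences from -2.20 to -1.46 and a median of -1.84, against a median of 0.01 over all genes. All 9 share sequence with other genes, so reads may be split among copies and the 9 calls are not independent observations. Zscan4d (chr7:11161374-11166159 in the GENCODE annotation of the mm10 genome) had 428658 and 224119 normalised reads in FL and 66259 and 100672 in C1C3a. Both C1C3a libraries were below both FL libraries, with a log2 difference of -1.92 (SE 0.29, adjusted p = 0.000418). Zscan4b had 493728 and 274617 in FL and 68692 and 111773 in C1C3a, a log2 difference of -2.07 (SE 0.31, adjusted p = 0.000396). Zscan4c, whose promoter is shown above, had 847976 and 465303 in FL and 175352 and 258579 in C1C3a, a log2 difference of -1.56 (SE 0.38, adjusted p = 0.00898), and here too the libraries of the groups did not overlap. The 9 genes together took 11.4% and 7.97% of all reads in FL and 2.73% and 3.59% in C1C3a. In the mCherry libraries every one of the 7 Zscan4 genes named by rule had 0 reads. The calls rested in part on single libraries: 4 of the 9 genes were called without FL replicate 1 and 4 without C1C3a replicate 1, and Zscan4c lost its call in both cases (log2 difference -1.13 and -1.28). With quantile normalization, or a pseudocount of 0.1, 5 of the 9 were called.

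Other gene families of the 2-cell embryo did not move as 1 block. Among the Usp17-like deubiquitinase genes, Usp17le had 132138 and 79499 normalised reads in FL and 19106 and 23965 in C1C3a, a fall of 2.26 on the log2 scale (SE 0.24, adjusted p = 3.51e-05). Usp17la fell from 37768 and 27279 to 11806 and 10245 (log2 difference -1.55, adjusted p = 0.00104). Usp17lc went the other way, with 21801 and 15398 in FL and 38578 and 52462 in C1C3a (log2 difference 1.30, adjusted p = 0.00495). This call was lost without C1C3a replicate 2 (log2 difference 1.07). In all, 3 of the 6 Usp17-like genes tested were lower and 1 was higher. All 6 share sequence with other genes, so here too reads may be split among copies. Of 34 tested pseudogenes of the Obox homeobox family, 26 were lower, none was higher, and the median log2 difference was -2.59. Shared sequence was found at 31 of the 34, and only 4 of the 34 were called lower with a pseudocount of 0.1. Obox4-ps11, for example, had 5170 and 5256 in FL and 650 and 1009 in C1C3a (log2 difference -2.68, adjusted p = 0.000695). Of the 6 protein-coding Obox genes tested, 1 was called: Obox6, with 111 and 137 in FL and 269 and 361 in C1C3a, a log2 difference of 1.33 (adjusted p = 0.00611) that was 1.12 and not called without C1C3a replicate 2.

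The Pramel and Pramef genes, most of which code for leucine-rich repeat proteins of germ line and early embryo, split in both directions. Of 13 tested, 4 were higher and 5 lower, and the lower ones include the antisense RNA Pramef12os. Shared sequence was found at 6 of the 13, among them Pramef6 (34.0% of its 50-base stretches), so reads may be split among copies. In a fit without genes of shared sequence, 3 were higher and 2 lower. Pramef6 showed the clearest fall, from 12522 and 7872 normalised reads in FL to 1114 and 964 in C1C3a, a log2 difference of -3.26 (SE 0.26, adjusted p = 4.02e-06). Pramef20 had 51.6 and 65.5 in FL and 2.21 and 5.66 in C1C3a (log2 difference -3.68, adjusted p = 0.000266). Pramel7, a gene of naive stem cells, rose from 128 and 104 to 1022 and 845 (log2 difference 3.0, adjusted p = 0.00892), and Pramel6, its neighbour, from 566 and 383 to 3690 and 2332 (log2 difference 2.65, adjusted p = 0.00823). The groups did not overlap at any of these 4 genes. Neither rise was called without C1C3a replicate 1, where 1 of the 13 genes was called higher (log2 difference 2.86 for Pramel7 and 2.32 for Pramel6), and that of Pramel6 was not called without FL replicate 2 either (2.37).

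Tdpoz genes, which code for proteins with TRAF and BTB domains, were higher in C1C3a at 3 of 5 genes tested, and none was lower. Tdpoz4 had 1575 and 833 normalised reads in FL and 8859 and 15217 in C1C3a (log2 difference 3.34, SE 0.45, adjusted p = 2.00e-04). Tdpoz2 had 57.5 and 34.5 in FL and 600 and 752 in C1C3a (log2 difference 3.88, adjusted p = 6.99e-05). Tdpoz5 had 648 and 270 in FL and 6405 and 9291 in C1C3a (log2 difference 4.20, adjusted p = 1.78e-05), and its log2 difference ran from 3.57 to 4.83 with FL replicate 1 or 2 left out. All 3 genes share sequence with other genes, from 43.6% of Tdpoz4 to 100% of Tdpoz5, so reads may be split among copies. The Eif1a-like genes on chromosome 12 also stood higher, at 7 of 11 tested, with a median log2 difference of 1.39. All 11 share sequence with other genes. BB287469, whose promoter is shown above, had 18604 and 21128 in FL and 61626 and 74792 in C1C3a (log2 difference 1.78, adjusted p = 0.0155). Gm4027 had 19895 and 22901 in FL and 66359 and 80320 in C1C3a (log2 difference 1.77, adjusted p = 0.0285). The 11 genes took 0.400% and 0.517% of reads in FL and 1.27% and 1.40% in C1C3a, so the groups were apart, but the calls were not firm: 1 gene was called without FL replicate 1, 3 without FL replicate 2, 2 without C1C3a replicate 1 and 1 without C1C3a replicate 2. BB287469 lost its call without C1C3a replicate 1, C1C3a replicate 2 or FL replicate 1, and Gm4027 without any 1 of the 4, with log2 differences from 1.64 to 1.92 at both. The count was 3 with quantile normalization, 4 with equal library totals and 1 with a pseudocount of 0.1, but 10 by edgeR, by DESeq2, with a pseudocount of 8 and with the FL and C1C3a libraries alone.

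Some families held no call. A cluster of 7 near-identical genes on chromosome 10 (104142987 to 104196522) took 19.2% and 12.3% of all reads in FL and 11.2% and 13.6% in C1C3a. The groups overlapped, none of the 7 was called, and log2 differences were -0.45 to -0.40. One of them, Gm4340, picked after its values had been seen, had 1255918 and 637230 normalised reads in FL and 558849 and 790545 in C1C3a. Duxbl1, a Dux paralog on chromosome 14, had 2247 and 2012 in FL and 2617 and 2704 in C1C3a (log2 difference 0.32, adjusted p = 0.515), and none of the 3 Duxbl genes was called by limma, edgeR or DESeq2 or had an unadjusted p under 0.05. Tcstv3, a 2-cell gene, had 45659 and 14812 in FL and 19442 and 33355 in C1C3a, and Tcstv1 had 3265 and 846 in FL and 1398 and 1687 in C1C3a. Neither had an unadjusted p under 0.05 or a call by edgeR or DESeq2. At both Tcstv genes the C1C3a libraries lay between the FL libraries (adjusted p = 0.977 for Tcstv3 and 0.902 for Tcstv1), so a difference could not be seen within that spread; the log2 difference ran from -0.84 to 0.78 for Tcstv3 and from -1.09 to 0.86 for Tcstv1 as FL replicate 2 or 1 was left out.

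Genes of the 2-cell embryo that were listed as having few copies were more often higher than lower. Of 26 tested, 10 rose, 4 fell and 12 were not called, with a median log2 difference of 0.66. Even so, 8 of the 26 share sequence with other genes, and in a fit without genes of shared sequence 9 rose and 1 fell. Zfp352, a zinc-finger gene started from a retroviral promoter, had 7784 and 4634 normalised reads in FL and 22928 and 29459 in C1C3a (log2 difference 2.11, SE 0.40, adjusted p = 0.00210). It had 0 reads in both mCherry libraries and 28261 and 30663 normalised reads in C3+14. Abcb5, a membrane transporter, had 315 and 282 in FL, 1741 and 2434 in C1C3a, 0.660 and 2.57 in mCherry and 1736 and 1819 in C3+14 (log2 difference between C1C3a and FL 2.78, SE 0.40, adjusted p = 0.000301). Arg2, a mitochondrial arginase, had 137 and 269 in FL, 893 and 1188 in C1C3a and 886 and 845 in C3+14 (log2 difference 2.42, adjusted p = 0.00132). At these 3 genes both C1C3a libraries were above both FL libraries and near those of C3+14. BC061212, a gene of the Pramef type with a copy elsewhere, was the reverse: 10947 and 9824 in FL and 1975 and 1328 in C1C3a (log2 difference -2.68, SE 0.31, adjusted p = 6.33e-05). C87977, also of that type, rose from 13.3 and 10.7 to 193 and 69.4 (log2 difference 3.17, adjusted p = 0.000607, from 2.44 to 3.90 with C1C3a replicate 1 or 2 left out). The count of genes that rose was 6 without FL replicate 2 and 6 without C1C3a replicate 2, and the count that fell was 2 without FL replicate 1 and 2 without C1C3a replicate 1; a pseudocount of 0.1 gave 5 and 2.

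**Figure D2:**
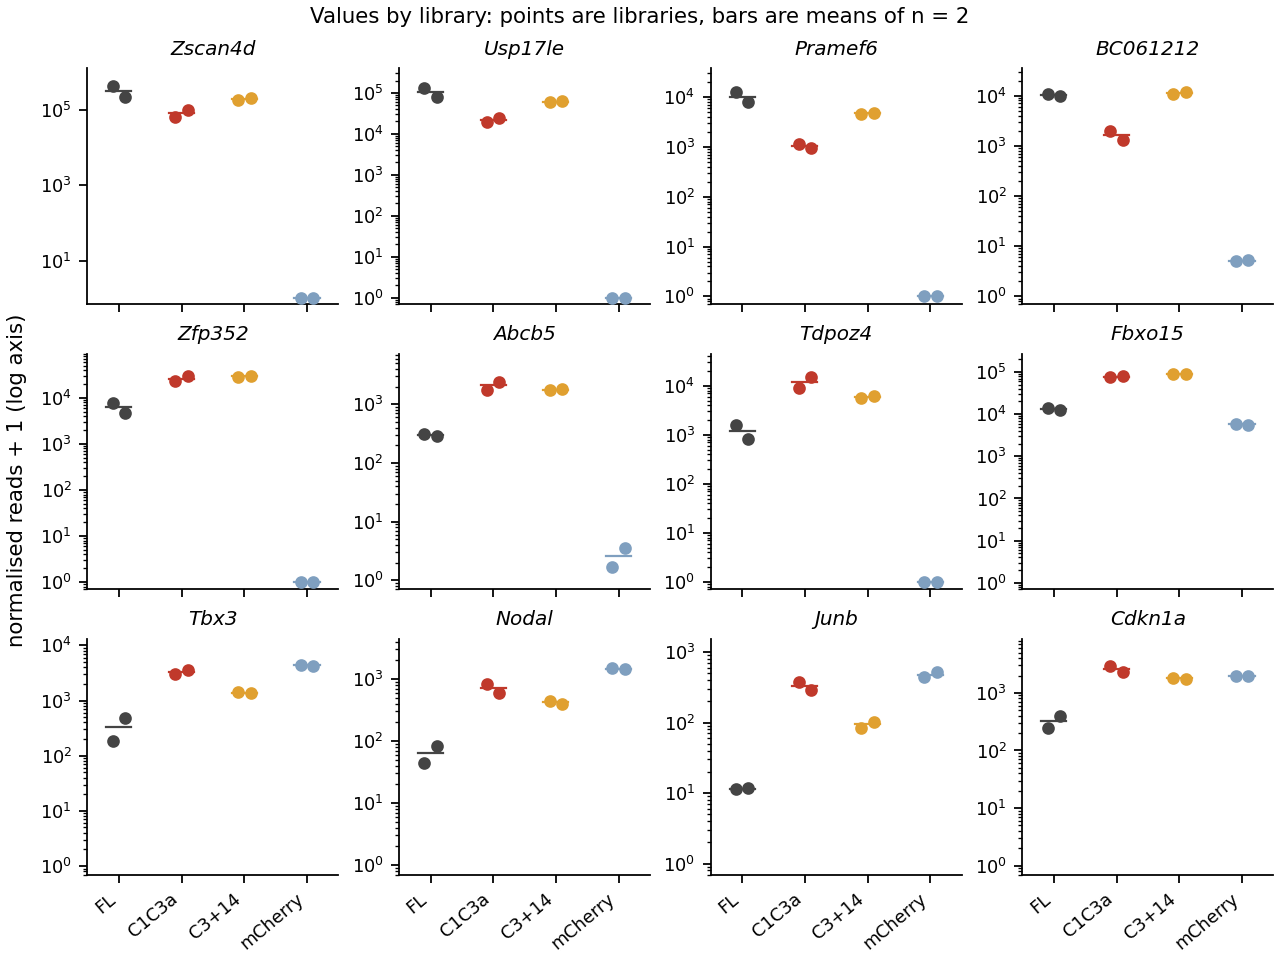
Normalised reads + 1 of 12 genes on a log axis in the 2 libraries (points, with bars at the means) of FL, C1C3a, C3+14 and mCherry. Zscan4d, Usp17le, Pramef6 and BC061212 are lower in C1C3a than in FL and the other 8 genes are higher, with no overlap between the FL and C1C3a libraries; C3+14 and mCherry values of genes with copies are not comparable with the others.

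Part of the genes that fell lay side by side in the genome. Of 4186 windows of 500 kb with tested genes, 20 held 5 or more genes lower in C1C3a. These 20 windows held 154 of the 981 lower genes on the assembled chromosomes (15.7%) and 14 higher genes. The windows, here and for higher genes below, were picked by the calls themselves. Whether called genes lie closer together than tested genes do was not tested. Genes that share sequence made up 88.3% of the 154. The window with the most, chromosome 7 from 15 to 15.5 Mb, had 19 of 26 tested genes lower, all 19 of them Obox4 pseudogenes, with a median log2 difference of -2.59. Chromosome 10 from 100 to 100.5 Mb had 14 of 21 lower with a median of -3.63, and chromosome 4 from 143.5 to 144 Mb, which holds Pramef6, had 13 of 17 lower and 1 higher. The Zscan4 window, chromosome 7 from 11 to 11.5 Mb, had 13 of 21 lower, among them the copy Gm18639, with 311 and 171 normalised reads in FL and 1.11 and 2.83 in C1C3a, where 3 reads were counted (ratio 122, 95% counting interval 42.6 to 611); it did not pass the filter without FL replicate 1 or 2. Some higher genes lay side by side too: 39 windows held 5 or more and together had 259 of 2370 higher genes (10.9%) and 15 lower ones. Chromosome 11 from 60.5 to 61 Mb had 17 of 29 genes higher with a median log2 difference of 3.92. One of them, the gene copy Gm12614, had 1 read in the 2 FL libraries together and 105 and 116 normalised reads in C1C3a, a ratio of 186 with a 95% counting interval of 29.6 to 6633. Chromosome 3 from 93.5 to 94 Mb, where the Tdpoz genes lie, had 12 of 20 higher, and chromosome 4 from 147.5 to 148 Mb, where zinc-finger genes such as Zfp985 lie, had 12 of 18 higher. Neighbouring copies share reads, so genes of a window are not independent observations.

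**Figure D3:**
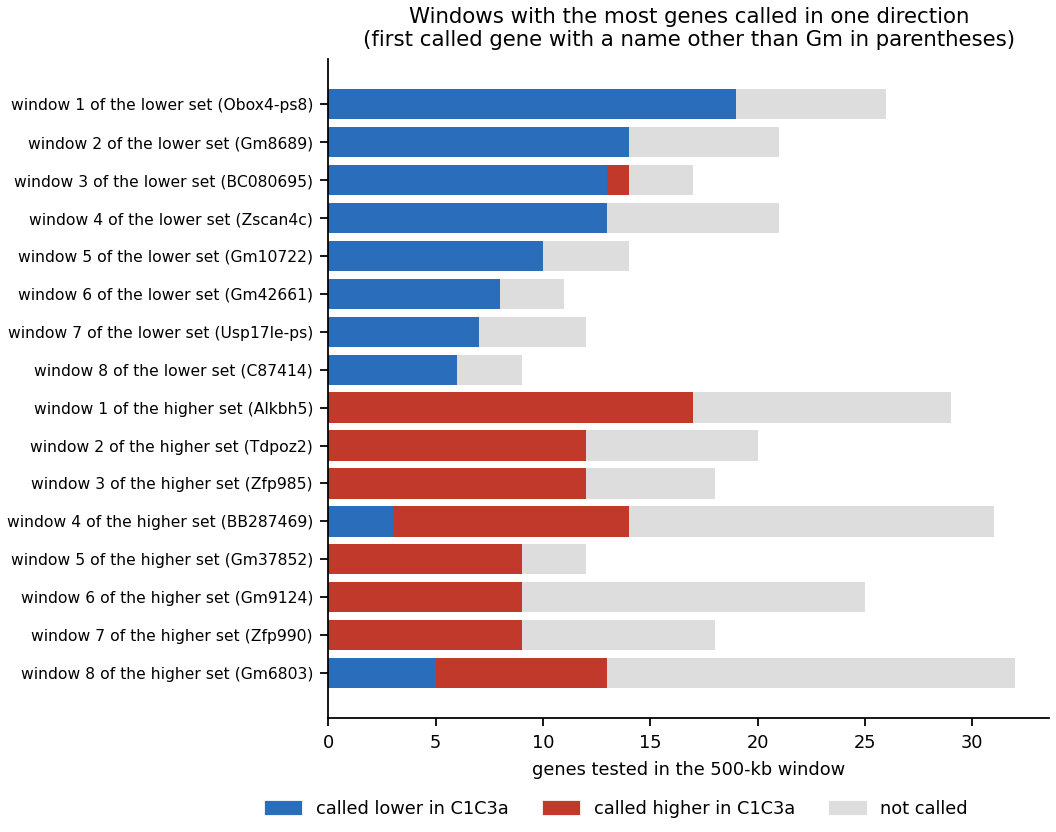
Number of genes tested in the 8 windows of 500 kb with the most genes called lower (upper 8 bars) and the 8 with the most called higher (lower 8 bars), split into genes called lower, called higher and not called. Most windows hold calls of 1 direction. The window with the Eif1a-like gene BB287469 holds 11 higher and 3 lower genes. The window beside it, chromosome 12 from 88 to 88.5 Mb, holds 8 higher and 5 lower genes.

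Genes raised by another DUX derivative were more often higher than lower in C1C3a. C3+14 and mCherry share no library with this comparison, and 6391 of the genes tested (29.6%) were higher in C3+14 than in mCherry by the same rule. Of those 6391 genes, 1373 (21.5%) were higher in C1C3a than in FL and 372 (5.82%) were lower, with a median log2 difference of 0.41, against 11.0% and 4.62% over all genes. Among the 3042 that C3+14 raised 8-fold or more, 832 (27.4%) were higher, 261 (8.58%) were lower and the median was 0.75. Leaving out genes of shared sequence gave 953 higher and 170 lower of 4111, and leaving out FL replicate 1 lowered the count of lower genes in the whole set to 209. Of the 3814 genes lower in C3+14 than in mCherry, 221 (5.79%) were higher in C1C3a than in FL and 326 (8.55%) were lower, with a median of -0.27. All libraries of the table shared 1 estimate of the spread in the fit.

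Genes of naive pluripotency were higher in C1C3a: of 14 tested, 7 rose and none fell, with a median log2 difference of 1.19. Tbx3, a T-box factor of the naive state, had 181 and 490 normalised reads in FL, 3025 and 3575 in C1C3a and 4388 and 4247 in mCherry (log2 difference 3.46, SE 0.32, adjusted p = 1.18e-05). Nr5a2, an orphan nuclear receptor, had 236 and 237 in FL, 1567 and 1539 in C1C3a and 1698 and 1701 in mCherry (log2 difference 2.71, SE 0.25, adjusted p = 1.02e-05). Klf4, a reprogramming factor, had 276 and 736 in FL, 3168 and 3028 in C1C3a and 3203 and 3108 in mCherry (log2 difference 2.78, adjusted p = 0.000137). At these 3 genes C1C3a lay near the tag alone and FL well below both. With FL replicate 1 or 2 left out, the log2 difference ran from 2.74 to 4.17 for Tbx3 and from 2.07 to 3.49 for Klf4. Fbxo15, an F-box gene of mESCs, had another pattern: 14091 and 12225 in FL and 75845 and 79220 in C1C3a, with 5996 and 5638 in mCherry and 91117 and 91195 in C3+14 (log2 difference 2.56, SE 0.13, adjusted p = 1.08e-07). Zfp42, known as Rex1, had 2288 and 3005 in FL, 5670 and 6395 in C1C3a and 11316 and 11174 in mCherry (log2 difference 1.20, adjusted p = 0.00122). Both constructs were below the tag alone at this gene. Klf5 rose as well, from 2209 and 3413 to 7466 and 7279 (log2 difference 1.42, adjusted p = 0.000128). Nanog had 4590 and 7052 in FL and 8928 and 8971 in C1C3a (log2 difference 0.65, adjusted p = 0.0667) and Esrrb 2032 and 2871 in FL and 3710 and 4315 in C1C3a (log2 difference 0.73, adjusted p = 0.0479). Neither reached the 2-fold change. The tag alone had 16214 and 15907 at Nanog and 13469 and 13881 at Esrrb, so both constructs were below it.

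Of 12 genes of the core pluripotency list, 3 rose and none fell, with a median of -0.16. Sall4, a zinc-finger factor of the pluripotency network, had 2543 and 3135 normalised reads in FL, 10246 and 13467 in C1C3a and 4469 and 4643 in mCherry (log2 difference 2.06, SE 0.19, adjusted p = 1.10e-05). Its C1C3a values stood above those of the tag alone as well as those of FL. Dppa2, which with Dppa4 primes developmental genes and acts upstream of Dux, had 6571 and 4109 in FL, 15490 and 16638 in C1C3a and 2768 and 2756 in mCherry (log2 difference 1.63, adjusted p = 3.23e-05). Sox2, the partner of OCT4, had 463 and 1039 in FL, 1777 and 1990 in C1C3a and 4962 and 4866 in mCherry (log2 difference 1.44, adjusted p = 0.00226). This call was lost without FL replicate 1 (log2 difference 0.85).

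Genes of the Nodal pathway, the TGF-beta signal of the early epiblast, and of primed pluripotency were tested as 1 list of 14, of which 6 rose and 1 fell. The ligand Nodal had 42.7 and 83.3 normalised reads in FL, 821 and 589 in C1C3a and 1483 and 1462 in mCherry (log2 difference 3.52, SE 0.26, adjusted p = 2.63e-06). Lefty1, an inhibitor of Nodal and its target, had 14.7 and 3.57 in FL and 70.8 and 42.5 in C1C3a (log2 difference 2.72, adjusted p = 0.00347). Smad7, the inhibitory SMAD, had 66.3 and 157 in FL and 800 and 566 in C1C3a (log2 difference 2.71, adjusted p = 4.39e-05). Both C1C3a libraries were above both FL libraries at all 3. With FL replicate 1 or 2 left out, the log2 difference ran from 1.83 to 3.61 for Lefty1 and from 2.09 to 3.32 for Smad7. Lefty2, the other Lefty gene, was called lower, but its libraries overlapped, with 143 and 21.4 in FL and 22.1 and 9.91 in C1C3a, and the log2 difference of -1.84 (adjusted p = 0.0483) was -0.50 without FL replicate 1 and lost its call without either C1C3a library too; without FL replicate 2 it was -3.18. Of their 50-base stretches, Lefty1 shares 20.6% and Lefty2 14.0% with other genes, so reads may be split among copies. Zic2, a zinc-finger gene of the primed state, rose from 44.2 and 41.7 to 166 and 115 (log2 difference 1.66, adjusted p = 0.000604).

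Immediate-early genes, which growth factor and stress signals switch on within minutes, rose at 12 of 17 genes tested and fell at none, with a median log2 difference of 1.88. Junb, a subunit of the AP-1 transcription factor, had 10.3 and 10.7 normalised reads in FL, 372 and 289 in C1C3a, 437 and 512 in mCherry and 83.8 and 102 in C3+14 (log2 difference 4.84, SE 0.32, adjusted p = 1.12e-06). Here FL stood below all of the other 3 groups. Fosl2, another AP-1 subunit, had 11.8 and 30.9 in FL, 224 and 170 in C1C3a and 40.9 and 34.3 in mCherry (log2 difference 3.28, adjusted p = 0.000149). Feedback inhibitors of receptor tyrosine kinase signalling were among them: Spry2 had 242 and 249 in FL and 1211 and 1502 in C1C3a (log2 difference 2.45, SE 0.18, adjusted p = 2.15e-06). Dusp6, an ERK phosphatase, had 8.84 and 26.2 in FL and 97.4 and 97.7 in C1C3a (log2 difference 2.59, adjusted p = 0.000486). Spry4 had 14.7 and 4.76 in FL and 48.7 and 101 in C1C3a (log2 difference 2.90, adjusted p = 0.00434). Myc had 23.6 and 4.76 in FL, 47.6 and 87.8 in C1C3a and 263 and 259 in mCherry (log2 difference 2.46, adjusted p = 0.00599). This call was lost without C1C3a replicate 2 (log2 difference 2.03). With FL replicate 1 or 2 left out, the log2 difference ran from 2.62 to 3.94 for Fosl2, from 1.86 to 3.32 for Dusp6, from 2.17 to 3.62 for Spry4 and from 1.42 to 3.51 for Myc.

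Targets of YAP, the Hippo pathway's coactivator, and of TGF-beta and BMP signals rose at 9 of 14 genes tested, with none lower and a median log2 difference of 1.78. Ccn1, a secreted matrix protein known as Cyr61, had 38.3 and 61.9 normalised reads in FL, 967 and 511 in C1C3a and 185 and 184 in mCherry (log2 difference 3.82, SE 0.28, adjusted p = 2.37e-06). Amotl2, an angiomotin that restrains YAP, had 327 and 455 in FL, 4357 and 4567 in C1C3a and 3168 and 3317 in mCherry (log2 difference 3.53, SE 0.16, adjusted p = 6.38e-08). Ccn2, known as CTGF, had 234 and 170 in FL and 1087 and 849 in C1C3a (log2 difference 2.26, adjusted p = 4.51e-05). Id1, a BMP target that blocks basic helix-loop-helix factors, had 51.6 and 25.0 in FL, 175 and 217 in C1C3a and 573 and 605 in mCherry (log2 difference 2.40, adjusted p = 0.00201). Lats2, a Hippo kinase that YAP itself induces, had 5.89 and 4.76 in FL and 32.1 and 21.2 in C1C3a (log2 difference 2.11, adjusted p = 0.000958). FL was the lowest of these 3 groups at all of the first 4 genes, and C1C3a was above the tag alone at Ccn1, Ccn2 and Amotl2 but below it at Id1.

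Targets of p53 and genes of apoptosis rose at 10 of 20 genes tested and fell at 1, with a median log2 difference of 0.97. Cdkn1a, the cell cycle inhibitor p21, had 246 and 395 normalised reads in FL, 2895 and 2339 in C1C3a and 1989 and 1984 in mCherry (log2 difference 3.06, SE 0.22, adjusted p = 2.33e-06). Sesn2, a stress-induced regulator of mTORC1, had 933 and 1178 in FL and 4594 and 3400 in C1C3a (log2 difference 1.91, SE 0.16, adjusted p = 4.44e-06). Eda2r, a death receptor, had 410 and 426 in FL and 1823 and 1203 in C1C3a (log2 difference 1.82, adjusted p = 0.000133). Bcl2l11, the BH3 protein BIM, had 69.2 and 107 in FL and 328 and 246 in C1C3a (log2 difference 1.71, adjusted p = 0.000132). Trp53inp1 rose from 554 and 973 to 2732 and 2170 (log2 difference 1.73, adjusted p = 0.00111). Perp, a desmosome protein, was the gene that fell, with 215 and 135 in FL and 71.9 and 46.7 in C1C3a (log2 difference -1.54, adjusted p = 0.00330). At Cdkn1a, C1C3a was above the tag alone and FL was below both, whereas at Perp the tag alone, with 1325 and 1180, was above both constructs.

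**Figure D4:**
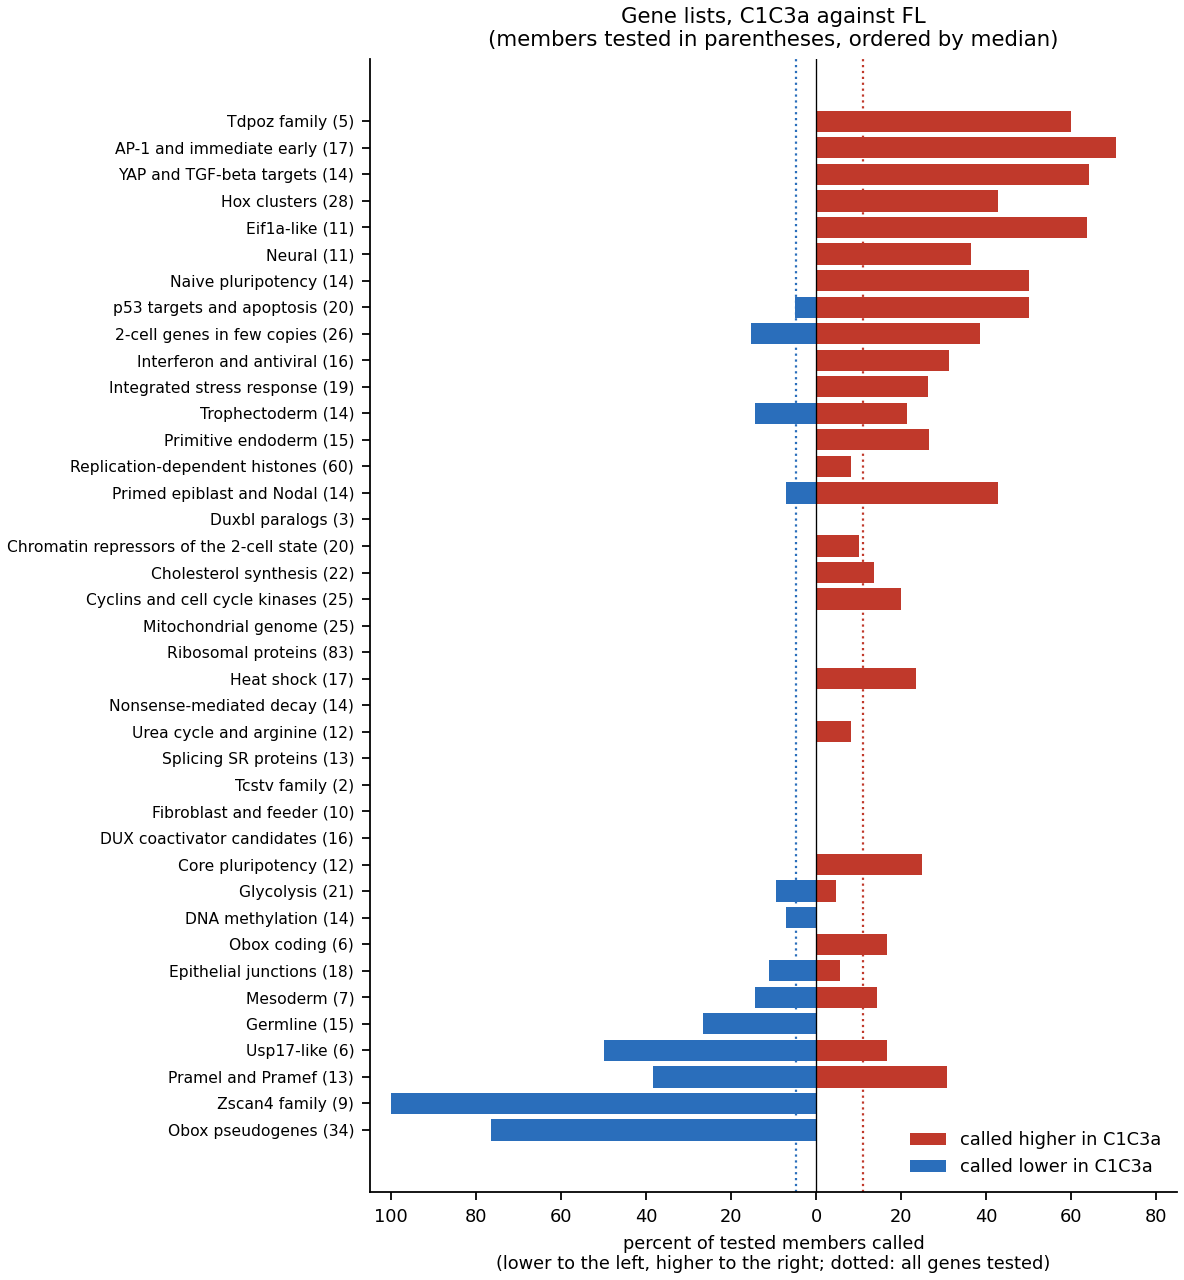
Percent of tested members called higher (right, red) and lower (left, blue) in C1C3a than in FL for 39 gene lists, ordered by their median log2 difference, with dotted lines at 11.0% and 4.62%, the shares over all genes tested. Immediate-early genes, YAP and TGF-beta targets, naive pluripotency and p53 targets have calls almost only to the right, the Zscan4 genes and Obox pseudogenes only to the left.

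Other stress and growth lists held fewer calls, to be read against the 11.0% of all genes tested that were higher. In the integrated stress response, 5 of 19 genes rose and none fell. Trib3, a pseudokinase, had 39.8 and 101 normalised reads in FL and 411 and 269 in C1C3a (log2 difference 2.37, adjusted p = 0.000828, from 1.71 to 3.03 with FL replicate 1 or 2 left out), and 2 genes of the list were called without FL replicate 1 and 3 without either C1C3a library. Atf4, the pathway's transcription factor, had 838 and 876 in FL, 1653 and 1941 in C1C3a and 5781 and 5673 in mCherry (log2 difference 1.06, adjusted p = 0.0102). This call was lost without C1C3a replicate 2 (log2 difference 0.95) or FL replicate 1 (1.03). Of 17 heat shock genes, 4 rose and none fell. Hspa1b, an inducible HSP70 gene, had 340 and 321 in FL and 1224 and 1539 in C1C3a (log2 difference 2.05, SE 0.24, adjusted p = 5.92e-05); 62.0% of its 50-base stretches are shared with other genes, and Hspa1a, its near-identical neighbour, also rose (log2 difference 1.72). Dnajb1, an HSP40 cochaperone, rose from 821 and 918 to 2540 and 2745 (log2 difference 1.60, adjusted p = 3.39e-06). Among 25 cyclins, kinases and inhibitors of the cell cycle, 5 rose and none fell. Aurka, a mitotic kinase, had 2033 and 2227 in FL and 5922 and 5606 in C1C3a (log2 difference 1.44, SE 0.11, adjusted p = 2.44e-06). Wee1, which holds cells before mitosis, had 326 and 464 in FL and 1000 and 944 in C1C3a (log2 difference 1.32, adjusted p = 0.000309). The cell cycle count was 3 without FL replicate 1. In cholesterol synthesis, 3 of 22 genes (13.6%, near the share of all genes) were called higher and none lower, among them Dhcr7, a late enzyme of the pathway (log2 difference 1.55, adjusted p = 1.05e-05), and Sqle, which oxidises squalene (log2 difference 1.41, adjusted p = 1.51e-05). In the interferon and antiviral list, 5 of 16 rose and none fell, and 2 or 3 of them were called without FL replicate 1 or either C1C3a library; Irf1, an interferon regulatory factor, had 81.0 and 57.1 in FL and 224 and 153 in C1C3a (log2 difference 1.43, adjusted p = 0.00151). Irf9, a subunit of the factor that interferon signalling activates, had 25.0 and 27.4 in FL, 78.6 and 62.3 in C1C3a and 326 and 327 in mCherry (log2 difference 1.38, adjusted p = 0.00148).

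Homeobox genes of the Hox clusters, which pattern the body axis and are held nearly silent in mESCs, rose at 12 of 28 genes tested, with none lower and a median log2 difference of 1.41. Hoxa9 had 1.47 and 8.33 normalised reads in FL, 151 and 79.3 in C1C3a and 3.96 and 1.72 in mCherry (log2 difference 4.52, SE 0.66, adjusted p = 0.000350, from 3.56 to 5.48 with FL replicate 1 or 2 left out). Hoxc12 had 16.2 and 8.33 in FL, 176 and 106 in C1C3a and 131 and 125 in mCherry (log2 difference 3.44, SE 0.33, adjusted p = 1.33e-05). Hoxa13 had 4.42 and 3.57 in FL and 44.3 and 21.2 in C1C3a (log2 difference 2.67, adjusted p = 0.00193). FL was thus near the tag alone at Hoxa9 and below it at Hoxc12. Without C1C3a replicate 1, 6 of the 28 were called.

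Markers of other lineages were tested as lists of cell types that the cultures could hold. The share called higher was 26.7% for primitive endoderm, 36.4% for neural, 21.4% for trophectoderm and 14.3% for mesoderm genes, against 11.0% of all genes tested. The share called lower was 14.3% for both trophectoderm and mesoderm genes, against 4.62% of all genes tested. Of the primitive endoderm list, 4 of 15 tested genes rose and none fell. Pdgfra, the receptor that marks this lineage, had 8.84 and 28.6 normalised reads in FL, 227 and 151 in C1C3a and 23.1 and 24.0 in mCherry (log2 difference 3.45, adjusted p = 0.000116). Foxa2, a pioneer factor of endoderm, had 4.42 and 33.3 in FL, 194 and 113 in C1C3a and 5.28 and 3.43 in mCherry (log2 difference 3.45, adjusted p = 0.00161). With FL replicate 1 or 2 left out, the log2 difference ran from 2.66 to 4.24 for Pdgfra and from 2.12 to 4.78 for Foxa2. The summed level of the 16 primitive endoderm genes was 24100 and 29880 in FL and 25626 and 24134 in C1C3a, so the list as a whole did not separate the groups. Among neural genes, 4 of 11 rose and none fell, among them Pax6 from 26.5 and 17.9 to 120 and 75.0 (log2 difference 2.07, adjusted p = 0.000855). The summed level of the 13 genes was 3703 and 2275 in FL and 2403 and 2204 in C1C3a and Dcx had 0 reads in all 4 libraries. Of the trophectoderm list, 3 of 14 rose and 2 fell: Tfap2a rose (log2 difference 1.5, adjusted p = 0.00419), and 1 gene was called higher without C1C3a replicate 1. Tfap2c, a trophectoderm and germ cell factor, fell from 84.0 and 158 to 33.2 and 53.8 (log2 difference -1.43, adjusted p = 0.00961), with 1514 and 1603 in mCherry, a call lost without C1C3a replicate 1 (log2 difference -1.09) or FL replicate 2 (-0.97). The summed level of the trophectoderm list was 1571 and 1484 in FL and 2038 and 1802 in C1C3a. Of 7 mesoderm genes tested, 1 rose and 1 fell, with a median log2 difference of -0.43 and 2 of the 7 above 0. The summed level of the list was 162 and 282 in FL and higher than that in both C1C3a libraries (up to 600). The gene that rose made up 33.9 and 146 of this sum in FL and 480 and 309 in C1C3a, so the higher sum does not describe the list as a whole. Meox1 and Msgn1 had 0 reads in all 4 libraries. None of 10 fibroblast and feeder genes was called by limma (1 had an unadjusted p under 0.05) or edgeR and 1 was by DESeq2; their summed level was 8019 and 3891 in FL and 4448 and 5677 in C1C3a, and Twist2 and Dcn had 0 reads. Whether cells of these kinds contribute to the other differences was not tested. In bulk RNA, a change in the number of cells of a kind and a change in RNA per cell cannot be told apart.

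Germline genes fell at 4 of 15 tested and none rose, with a median log2 difference of -0.77. Mov10l1, an RNA helicase of the piRNA pathway, had 511 and 637 normalised reads in FL, 242 and 221 in C1C3a and 172 and 187 in mCherry (log2 difference -1.30, SE 0.27, adjusted p = 0.00344). The summed level of the germline list was 16194 and 21155 in FL and 15172 and 11715 in C1C3a. The count of falls was 2 without FL replicate 1, 1 without C1C3a replicate 1 and 2 without C1C3a replicate 2. In DNA methylation, Tet3, an oxidase of 5-methylcytosine, was the single call of 14, with 100 and 115 in FL and 53.1 and 26.9 in C1C3a (log2 difference -1.48, adjusted p = 0.00337). Several lists had shares of calls near those of all genes tested, 11.0% higher and 4.62% lower. Among 20 chromatin repressors known to hold back the 2-cell state, 2 (10%) were called higher and none lower: Zfp809, which recruits TRIM28 to retroviral DNA, from 1235 and 1649 to 4707 and 5755 (log2 difference 1.87, SE 0.19, adjusted p = 2.65e-05), and Rif1, a replication timing factor, from 2465 and 2356 to 4315 and 6303 (log2 difference 1.11, adjusted p = 0.00621), the latter lost without C1C3a replicate 2 (log2 difference 0.84). In the epithelial junction list 1 of 18 genes (5.56%) was called higher and 2 (11.1%) lower, the larger fall at Krt19, a keratin, from 149 and 171 to 44.3 and 25.5 (log2 difference -2.21, adjusted p = 0.00380). Of 21 glycolysis genes 1 (4.76%) was called higher and 2 (9.52%) lower, among them the glucose transporter Slc2a3, from 13122 and 11411 to 5411 and 6546 (log2 difference -1.04, adjusted p = 0.000124). This call was lost without C1C3a replicate 1 (log2 difference -0.90) or FL replicate 1 (-0.94). Of 60 replication-dependent histone genes 5 (8.33%) were called higher, a share below that of all genes tested, and none lower; 3 were called higher without C1C3a replicate 1. Hist1h1b, a linker histone, had 13.3 and 13.1 in FL and 76.4 and 79.3 in C1C3a (log2 difference 2.47, adjusted p = 0.00262). Hist3h2ba had 39.8 and 70.2 in FL and 306 and 243 in C1C3a (log2 difference 2.34, adjusted p = 0.00107). Poly(A) libraries capture the mostly unpolyadenylated histone messages poorly. Of 12 urea cycle and arginine genes, Arg2 was the single call.

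By limma as used above, edgeR and DESeq2, no gene was called in the 16 candidate coactivators of DUX (such as BRG1 and p300), the 14 genes of nonsense-mediated decay, the 13 splicing SR protein genes, the 83 ribosomal protein genes and 25 tested genes of the mitochondrial genome. Other settings of limma called 1 mitochondrial gene higher: the replicate block, no filter on low values, a pseudocount of 8 and quantile normalization. Quantile normalization also called 2 decay genes lower. Calls in both lists, in the same directions, arose without FL replicate 2 too. At an unadjusted limma p under 0.05, 8 coactivator, 4 decay, 6 SR, 7 ribosomal protein and 4 mitochondrial genes passed, and without the 2-fold rule the adjusted p was under 0.05 at 7, 3, 5, 4 and 1 of them, respectively. Ribosomal protein genes took 6.84% and 8.31% of reads in FL and 8.93% and 8.70% in C1C3a, and mitochondrial genes 4.28% and 5.10% in FL and 6.19% and 5.89% in C1C3a.

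The 12 genes named for the size of their rise do not come from 1 list and were not tested for a shared role. Exph5, an effector of RAB27B, had 2.95 and 5.95 normalised reads in FL, 511 and 218 in C1C3a, 10.6 and 6.0 in mCherry and 648 and 640 in C3+14 (log2 difference 6.0, SE 0.42, adjusted p = 1.99e-06, from 5.39 to 6.61 with C1C3a replicate 1 or 2 left out). Pou4f2, a POU homeobox factor of sensory neurons, had 7.37 and 5.95 in FL, 262 and 331 in C1C3a, 127 and 133 in mCherry and 70.4 and 79.4 in C3+14 (log2 difference 5.28, SE 0.30, adjusted p = 2.96e-07). Alppl2, an alkaline phosphatase of the early embryo, had 8.84 and 2.38 in FL, 261 and 194 in C1C3a and 0.660 and 1.72 in mCherry (log2 difference 5.29, adjusted p = 0.000305, from 4.52 to 6.06 with FL replicate 1 or 2 left out). Exph5 and Alppl2 were thus low in FL and in the tag alone, while Pou4f2 was lower in FL than in the tag alone. Nuak2, a kinase of the AMPK family, had 19.2 and 23.8 in FL, 545 and 399 in C1C3a and 158 and 156 in mCherry (log2 difference 4.39, SE 0.32, adjusted p = 2.33e-06). Tmem150c, a membrane protein, rose from 8.84 and 16.7 to 346 and 306 (log2 difference 4.63, adjusted p = 6.75e-06), and AU015228 from 64.8 and 66.7 to 1461 and 1559 (log2 difference 4.50, adjusted p = 2.11e-05). The others of the 12 named by size were Junb and Hoxa9, given above, Tnc, a matrix protein (log2 difference 4.66, from 3.01 to 6.31), Alx1, a homeobox factor of the face (4.57, from 3.52 to 5.61), Sp8, a zinc-finger factor of limb and brain (4.31, from 3.45 to 5.17), and Elobl (4.23, from 3.49 to 4.97), each range with FL replicate 1 or 2 left out. Among genes with a number for a name, Gm12622 had 0 reads in both FL libraries and 73.1 and 102 normalised reads in C1C3a, at least 21.9-fold higher against a floor of 3 reads per library.

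Many of the largest falls were at genes of few reads or at gene copies. Gja3, a connexin of the lens, had 54.5 and 70.2 normalised reads in FL and 5.53 and 1.42 in C1C3a (log2 difference -3.98, SE 0.62, adjusted p = 0.000519, from -4.70 to -3.27 with C1C3a replicate 1 or 2 left out). Tnfaip8l3, a lipid transfer protein, had 63.4 and 53.6 in FL, 6.64 and 4.25 in C1C3a and 65.3 and 48.6 in C3+14 (log2 difference -3.23, SE 0.55, adjusted p = 0.00106). Olfr665, an olfactory receptor gene that lies in the window of the Usp17-like genes, had 70.7 and 42.9 in FL and 5.53 and 0 in C1C3a (log2 difference -4.46, adjusted p = 0.000969, from -5.81 to -3.10 with 1 C1C3a library, replicate 1 or 2, left out). Pramef12os, an antisense RNA of a Pramef gene, had 73.7 and 66.7 in FL and 5.53 and 1.42 in C1C3a (log2 difference -4.16, adjusted p = 0.000620, from -4.88 to -3.44 with 1 C1C3a library, replicate 1 or 2, left out). Counting is not stated to use strand, so its reads cannot be told apart from those of the gene opposite. All of these genes were low in both C1C3a libraries. Krtdap, a keratinocyte protein, had 58.9 and 73.8 in FL and 12.2 and 1.42 in C1C3a (log2 difference -3.57, adjusted p = 0.00984). This call was lost without C1C3a replicate 2, and the log2 difference ran from -4.79 to -2.35 with 1 C1C3a library, replicate 1 or 2, left out. Genes on scaffolds outside the assembled chromosomes fell too: AC163611.1 had 22513 and 17928 in FL and 2063 and 2521 in C1C3a (log2 difference -3.14, SE 0.29, adjusted p = 1.18e-05), AC140325.3 had a log2 difference of -3.13 (adjusted p = 0.000809) and AC164084.3 one of -3.18 (adjusted p = 0.000327). How much sequence these scaffold genes share with other genes was not measured. Cpne4, a copine, had a log2 difference of -5.78 (adjusted p = 0.0287) that rested on 1 library: it had 13.3 and 2312 in FL and 0 and 9.91 in C1C3a, and without FL replicate 2 the log2 difference was -2.11 and not called. It was -9.45 without FL replicate 1 and -7.50 without C1C3a replicate 2, and the call was also lost without C1C3a replicate 1 (-4.06). Vmn1r151, a vomeronasal receptor gene with a full copy elsewhere, had 121 and 5.95 in FL and 0 reads in C1C3a. The mean of the FL libraries was 16.8-fold above a floor of 3 reads per library in C1C3a, but this rested on FL replicate 1. The gene did not pass the filter without FL replicate 1, and its log2 difference was -6.93 without FL replicate 2. Gm18640, a pseudogene copy with 61.2% shared sequence near the Zscan4 genes, had 233 and 125 in FL and 1.11 and 0 in C1C3a, where 1 read was counted in all, a ratio of 323 with a 95% counting interval of 49.6 to 11052 that covers counting error only.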

How the data were processed

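RNA was extracted with TRIZOL and libraries were made with the Illumina TruSeq Stranded mRNA kit, per the labels' protocols. The submitters' processing notes name Trim Galore 0.5.0, FastQC, DESeq2 and the mm10 build; the aligner, counter and annotation are not given in the sources used here. The authors deposited a signal per gene and library, reads divided by a size factor: all values were whole multiples of 1 step per library (tolerance 1e-06), which recovers the reads. Symbols for 99.5% of identifiers and gene positions came from GENCODE vM21.

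Values were tested as log2(value + 1) with limma 3.58.1 (R 4.3.3), with a trend in the prior, over all 14 libraries, which share 1 estimate of the spread, for genes that reached 10 in 2 or more libraries. Alternatives were edgeR 4.0.16 and DESeq2 1.42.0 on recovered reads, other scalings, pseudocounts, filters and samples, and each library left out. On simulated data with 20989 genes of this comparison, limma called 41.8% of 67 genes changed 2-fold, 91.0% of 67 changed 4-fold and all 66 changed 8-fold, with 10 false calls. The changed genes were drawn from those averaging 50 or more normalised reads, and the simulated spread depended on expression level alone. These figures therefore do not cover genes of few reads or genes that vary more than others of their level. Genes are named by rule: up to 12 called genes in each direction with the largest change, whose libraries do not overlap and whose higher group averages 50 or more, with up to 3 more in each direction among numbered and pseudogene symbols; in each list up to 6 called members of the largest change and, under 2 calls, the 2 of highest mean; 16 fixed genes; and those that the text says were picked after their values were seen. The members and lists were chosen with earlier results of these data known. No batch is given in the labels used here. A few genes are not reported here.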

Additional observations from a re-analysis of the deposited data

How the results depend on the processing

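Single results rest on 2 libraries a group. At this depth 1 read was worth 1.11 to 1.47 in normalised reads, so genes of a few reads cannot show small changes, and genes with near-identical copies may have traded reads. The calls numbered 3375, with 2377 higher and 998 lower. An adjusted p alone, without the 2-fold rule, gave 5418 calls, of which 2067 were lower. A fit of the 4 FL and C1C3a libraries alone gave 633 lower genes and equal library totals gave 654. Leaving out single libraries gave 2608 to 3579 calls, 1654 to 2510 of them higher and 730 to 1069 lower. Of the genes that C3+14 raised over mCherry, 832 were called higher where the set was limited to 8-fold rises (1373 in the full set). The count of lower genes in that set, 372, was 214 with a pseudocount of 0.1 and 170 without genes of shared sequence. Leaving out single libraries gave 957 to 1213 higher and 209 to 409 lower genes in that set. The cause of these shifts was not tested, apart from the smaller sets and fewer libraries. The log2 difference of Tcstv1 turned to 0.0020 and that of Tcstv3 to 0.0859 with equal library totals. With single libraries left out it ran from -1.09 to 0.86 for Tcstv1, from -0.84 to 0.78 for Tcstv3 and from -0.92 to 0.0608 for Gm4340. Of the 105 called genes in the text, 99 kept their call and direction in every scaling tried and 82 in every alternative.

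By edgeR on recovered reads 3152 genes were called and by DESeq2 2997, of which 2909 and 2719 were among the 3375. Replicate numbers are shared between groups, but deviations of same-numbered FL and C1C3a libraries correlated with r = -0.0774, so they were not treated as pairs; a fit with the replicate block gave 3233 calls, 2283 higher and 950 lower, and 1322 higher and 353 lower in the set raised by C3+14.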

Other observations

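Picked after its values had been seen, Gm13694, a gene copy on chromosome 2 (83978933 to 83981425), had 36124 and 19153 normalised reads in FL and 70730 and 122920 in C1C3a. Both C1C3a libraries were above both FL libraries, with a log2 difference of 1.83 (limma adjusted p = 0.00815). Its call was lost without C1C3a replicate 2 (log2 difference 1.43) or FL replicate 2 (1.37).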
